A study of Mus musculus with 6 samples.

Results

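Ovol1, Ovol2, Grhl2, Esrp1, Esrp2, Cdh1, Zeb1 and Zeb2 are 8 genes that set or mark whether a cell keeps an epithelial or takes a mesenchymal state. They were taken by symbol from the 23127 genes of the deposited table, and all 8 reached the mean level needed for testing. The set was chosen by its values in the contrast of interferon gamma (IFNg) with no treatment, so every difference of these genes in that contrast is a description, without a test. The measured cells were intestinal stem cells sorted for high Lgr5-GFP, a reporter of the crypt base stem cell gene Lgr5, from the small intestine of C57BL/6 Lgr5-GFP mice. The 3 IFNg libraries came from cells held for 1.5 h with 1 ng/ml IFNg in a medium containing EGF, Noggin and R-spondin1 (ENR). The 3 untreated libraries carry the label of no treatment and the same 1.5 h in their titles. All 6 libraries thus share the reporter, the strain and the sort, and the labels used here give neither age nor the number of animals. Libraries are named by the end number of their titles, which are 5, 1 and 9 for untreated and 6, 2 and 10 for IFNg. Titles also hold a tag whose meaning is not given, which is GFP1 in libraries 5 and 6 and GFP3 in libraries 1, 9, 2 and 10.

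OVOL proteins are zinc-finger repressors and GRHL2 is a grainyhead-family activator, and together they hold epithelial genes on and keep the zinc-finger repressors ZEB1 and ZEB2 low. ZEB proteins in turn repress Cdh1, which encodes the adherens junction protein E-cadherin, and the splicing regulators Esrp1 and Esrp2, whose products choose the epithelial forms of their target transcripts. In the intestine the epithelial genes among these are known for keeping the single-layered epithelium joined while stem cells divide and their daughters differentiate.

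Ovol1 and Ovol2 are paralogs, as are Esrp1 and Esrp2, and the stretches below show how alike their coding sequences are, which bears on whether reads can be told apart. Capitals mark the longest run of bases identical within each pair of genes. The sequences come from GENCODE M21 transcripts on GRCm38 (mm10), 5′ to 3′ on the coding strand. The Ovol1 stretch lies in exon 3 of 4 at chr19:5551496-5551557 on the minus strand, and the Ovol2 stretch in exon 3 of 4 at chr2:144317722-144317783 on the minus strand.
Ovol1: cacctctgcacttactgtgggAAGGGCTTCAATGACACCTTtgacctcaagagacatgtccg
Ovol2: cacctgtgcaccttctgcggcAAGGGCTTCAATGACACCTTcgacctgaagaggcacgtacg
The run shared by Ovol1 and Ovol2 was 20 bases long, of 801 and 822 coding bases. The Esrp1 stretch joins exons 13 and 14 of 16 between chr4:11344234-11353342, and the Esrp2 stretch joins exons 13 and 14 of 15 between chr8:106131801-106132153, both on the minus strand.
Esrp1: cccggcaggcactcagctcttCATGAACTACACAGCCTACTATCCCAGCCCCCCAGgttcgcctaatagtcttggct
Esrp2: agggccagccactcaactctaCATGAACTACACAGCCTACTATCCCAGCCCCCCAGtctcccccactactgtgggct
The run shared by Esrp1 and Esrp2 was 35 bases long, of 2043 and 2151 coding bases. The sources used here do not give the read length.

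Each library had 28508762 to 40224497 reads in genes. The floor for a gene at 0 was taken as 3 reads, worth 2.56 to 3.16 scaled counts, which covers counting error only. Scaled counts are reads divided by 1 size factor per library. Irf1, a primary target of IFNg signalling, had a mean of 1773 ± 89.3 scaled counts (SD, n = 3) in untreated and 59642 ± 6397 in IFNg libraries, a 33.6-fold rise (limma, adjusted p = 2.33e-05). The summed level of 7 crypt stem cell markers was 261796 to 301694 in untreated and 276080 to 278656 in IFNg libraries. Olfm4 made up most of each sum, with 219689 to 266604 in untreated and 225396 to 240556 in IFNg libraries. Lgr5 had 2801, 8499 and 5366 in untreated 5, 1 and 9, and 2484, 5310 and 4706 in IFNg 6, 2 and 10. Both genes were thus present in every library, although Lgr5 was uneven between libraries. Sums for other cells were 59.0 to 78.3 in untreated and 55.4 to 80.7 in IFNg libraries for 4 leukocyte markers, and 62.2 to 398 and 35.8 to 188 for 8 markers of fibroblasts and smooth muscle. Secretory cell markers were far from 0, with 98350 to 346430 in untreated and 22636 to 194853 in IFNg libraries for the 5 Paneth cell markers. Some results changed when a single library was left out, and values without single libraries are given where they matter.

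Ovol2, the repressor of Zeb1 and of mesenchymal genes (chr2:144305175-144332146, minus strand), was the 1 gene of the 8 with a large difference after IFNg. Its level was 198, 65.4 and 93.7 scaled counts in untreated 5, 1 and 9, and 1398, 1574 and 1263 in IFNg 6, 2 and 10. The lowest IFNg library was thus several times the highest untreated library, and the groups did not overlap. The reads behind these values were 188, 76 and 91 in untreated and 1639, 1633 and 1440 in IFNg libraries. The means were 119 ± 69.9 scaled counts in untreated and 1412 ± 156 in IFNg libraries (SD, n = 3 each), a ratio of 11.9 and a log2 difference of 3.71 ± 0.41 (SE, limma on log2(scaled count + 1)). Relative to the mean the spread was wider among the untreated libraries, where untreated 5 was the highest and untreated 1 the lowest. In bulk samples, fewer cells of a type and less RNA per cell cannot be told apart.

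**Figure D1:**
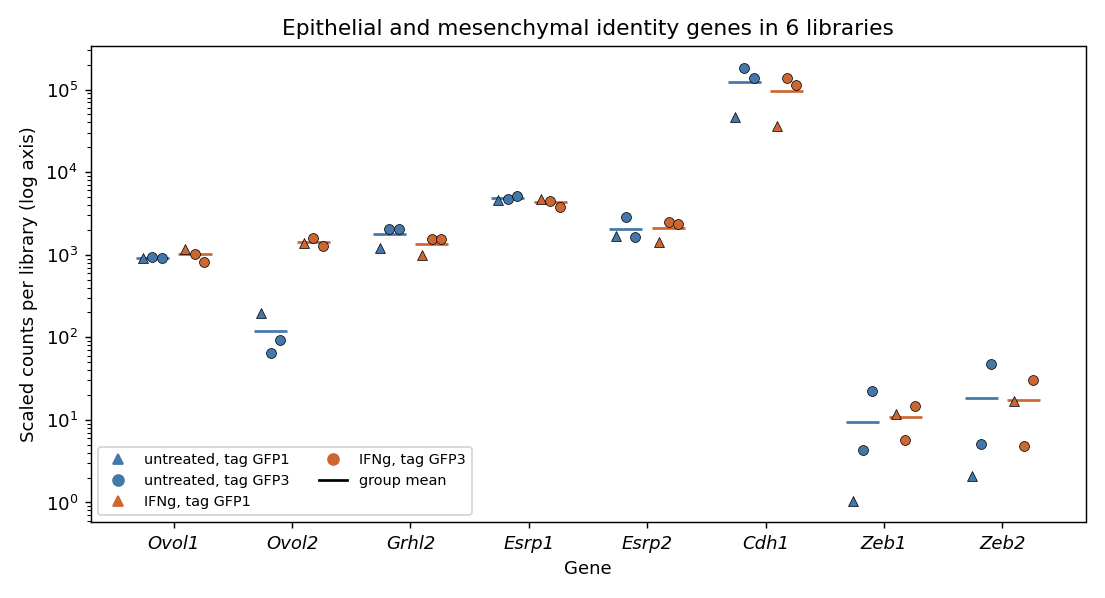
Scaled counts (log axis) of the 8 genes in each of the 6 libraries, untreated in blue and IFNg in orange, with triangles for GFP1 and circles for GFP3 libraries. Ovol2 is the gene whose groups lie apart, from 65.4 to 198 in untreated and from 1263 to 1574 in IFNg libraries, while the other 7 overlap.

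Testing covered the 16095 genes whose mean reached 10 scaled counts. Of these, 67 (0.416%) were higher and 2 (0.0124%) lower in IFNg libraries at an adjusted p below 0.05 in limma, and groups that did not overlap in either direction were found for 13.2% of them. Ovol2 was among the 67 and was the 1 of the 8 genes in either class. Since this contrast chose the genes, nothing is read from that count. By size of the log2 difference Ovol2 was the 32nd of the 67. The count of 67 was 366 without untreated 5, 40 without IFNg 2 and 44 without IFNg 10, and that of 2 was 1 when untreated 1, untreated 9, IFNg 6, IFNg 2 or IFNg 10 was left out.

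Pairs formed from neighbouring end numbers within a tag (5 with 6, 1 with 2, 9 with 10) each had more Ovol2 after IFNg. The ratio was 7.06 for libraries 5 and 6, 24.1 for 1 and 2 and 13.5 for 9 and 10. A log2 difference of at least 1 in all 3 pairs was found for 1.48% of tested genes. A different class, with such a rise in both GFP3 pairs and a smaller one or none in the GFP1 pair, held 8.54% of tested genes. Ovol2 was thus in the first class, although its ratio was smallest in the GFP1 pair. The IFNg difference in the GFP3 libraries exceeded that in the GFP1 libraries by 1.34 ± 0.54 on the log2 scale (SE, limma). This is a description without a test, and the GFP1 side holds 1 library per treatment.

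Leaving out untreated 5, the library with the most Ovol2 among the controls, gave a ratio of 17.7, and leaving out untreated 1 gave 9.68. With the 4 GFP3 libraries alone it was 17.8. The log2 difference lay between 3.36 and 4.15 over 16 alternative settings.

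Ovol1, the family member that represses many of the same targets (chr19:5549136-5560646, minus strand), did not share the pattern of Ovol2. It had 902, 945 and 910 scaled counts in untreated 5, 1 and 9, and 1185, 1017 and 826 in IFNg 6, 2 and 10. The IFNg libraries lay on both sides of the untreated ones, and the groups overlapped. The log2 difference was 0.12 ± 0.26 (SE), and the pair differences ran from 0.39 in libraries 5 and 6 to -0.14 in 9 and 10. Its scatter around the group means was small, with a residual SD of 0.186 on the log2 scale against a median of 0.484 for all tested genes. The third family member, Ovol3, was near the floor, at 0 in 4 of 6 libraries and at most 6.32 scaled counts.

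Grhl2, the activator of Cdh1 and Ovol2 (chr15:37233036-37363569, plus strand), had 1205, 2042 and 2028 scaled counts in untreated 5, 1 and 9, and 994, 1558 and 1548 in IFNg 6, 2 and 10. The GFP1 library was the lowest of each group, and the groups overlapped. The log2 difference was -0.35 ± 0.32 (SE). Within pairs it varied less, at -0.28, -0.39 and -0.39, beside medians of 0.013, -0.083 and -0.18 for all tested genes. How many tested genes were lower in all 3 pairs was not counted. The family members Grhl1 and Grhl3 had means of 560 ± 246 and 49.9 ± 13.3 scaled counts in untreated libraries, and 570 ± 326 and 22.4 ± 15.3 in IFNg libraries (SD, n = 3).

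Esrp1, which binds RNA to promote epithelial exons (chr4:11331933-11386783, minus strand), was the steadiest of the 8. Its values were 4653, 4756 and 5098 scaled counts in untreated 5, 1 and 9, and 4710, 4492 and 3814 in IFNg 6, 2 and 10. IFNg 10 was the lowest library, and the groups overlapped through IFNg 6. The log2 difference was -0.16 ± 0.23 (SE), and its residual SD of 0.123 was lower than that of all but 1.41% of tested genes.

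Esrp2, its paralog with overlapping splicing targets (chr8:106130319-106136974, minus strand), had 1683, 2830 and 1658 scaled counts in untreated 5, 1 and 9, and 1424, 2518 and 2361 in IFNg 6, 2 and 10. Untreated 1 was the highest library and IFNg 6 the lowest, and the groups overlapped. The log2 difference was 0.03 ± 0.33 (SE), and its sign turned under 6 of the 16 alternative settings, among them edgeR's TMM scaling. Esrp2 shares 219 exon bases with Nfatc3 on the opposite strand, a gene with a mean of 3001 scaled counts. The library chemistry marks no strand, so reads from that overlap cannot be told apart.

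Cdh1 (chr8:106603351-106670246, plus strand) was the most abundant of the 8. It had 46121, 184672 and 137707 scaled counts in untreated 5, 1 and 9, and 36061, 138927 and 114644 in IFNg 6, 2 and 10. Both GFP1 libraries lay far below all 4 GFP3 libraries, so the treatment groups overlapped. The log2 difference was -0.34 ± 0.62 (SE), and it turned to 0.06 without untreated 1 and to 0.26 without IFNg 6. This fit has no term for tag or pair, so the spread between tags enters the SE. Leaving out 1 library also makes the tags uneven between the groups. Within pairs the log2 difference of Cdh1 was -0.35, -0.41 and -0.26, beside medians of 0.013, -0.083 and -0.18 for all tested genes.

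Zeb1 (chr18:5591860-5775467, plus strand), the repressor of Cdh1 and Esrp1, was close to the floor. It had 1.05, 4.30 and 22.7 scaled counts in untreated 5, 1 and 9, and 11.9, 5.78 and 14.9 in IFNg 6, 2 and 10, which are 1 to 22 reads. Untreated 9 was the highest, untreated 5 lay under the floor of 3 reads, and the groups overlapped. The log2 difference of 0.81 ± 1.04 (SE) turned to -0.11 with the GFP3 libraries alone, and the ratio of means went from 1.17 to 4.06 without untreated 9. No direction can be read for Zeb1 at this depth.

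Zeb2 (chr2:44983632-45117395, minus strand), the related repressor, had 2.11, 5.16 and 47.4 scaled counts in untreated 5, 1 and 9, and 17.1, 4.82 and 30.7 in IFNg 6, 2 and 10. Untreated 9 was again the highest library and untreated 5 the lowest. The log2 difference of 0.62 ± 1.13 (SE) was -0.13 in edgeR and -0.02 in DESeq2, and the ratio of means went from 0.962 to 4.82 without untreated 9. The fibroblast and smooth muscle marker Col1a1 had 1.05, 0.860 and 26.8 scaled counts in untreated 5, 1 and 9, and 11.1, 6.75 and 7.90 in IFNg 6, 2 and 10, so it too was highest in untreated 9. The sum of all 8 markers of those cells was 62.2, 192 and 398 in untreated 5, 1 and 9, and 35.8, 178 and 188 in IFNg 6, 2 and 10. The part of such cells in the Zeb1 and Zeb2 values was not tested.

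Levels of the 8 genes were set side by side only per kb of exon, using the merged exon length in GENCODE M21. In untreated libraries the order of mean scaled counts per kb was Cdh1 with 26855 ± 15405, Esrp1 with 767 ± 37.0, Esrp2 with 474 ± 154, Ovol1 with 264 ± 6.64, Grhl2 with 204 ± 55.6 and Ovol2 with 56.3 ± 33.1 (SD, n = 3). Zeb2 with 0.913 ± 1.27 and Zeb1 with 0.910 ± 1.13 came last and did not differ beyond their spread. The other neighbours in this order did not overlap, although Ovol1 and Grhl2 differed by little more than the SD of Grhl2. In IFNg libraries Ovol2 stood at 668 ± 73.8 per kb, beside Esrp1 at 688 ± 74.1, and these overlapped. Next came Esrp2 with 484 ± 136, Ovol1 with 289 ± 51.5 and Grhl2 with 159 ± 37.5. Ovol2 thus moved from the sixth place to the third, and in IFNg libraries its mean lay above that of Ovol1.

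**Figure D2:**
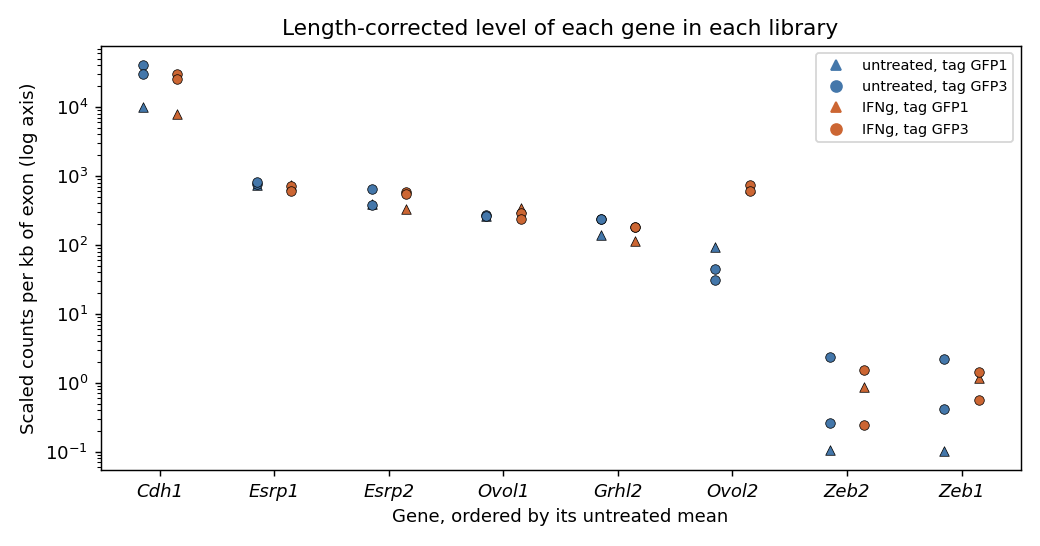
Scaled counts per kb of exon (log axis) of the 8 genes, ordered by untreated mean, in untreated (blue) and IFNg (orange) libraries; each point is a library. Ovol2 moves from a mean of 56.3 to 668 per kb, level with Esrp1 at 688, and Zeb1 and Zeb2 lie near 1 in both groups.

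Related genes were examined in lists taken from knowledge of the pathway, in the same limma fit. In the list of other epithelial transcription factors, 20 of 22 genes were tested and 0 passed in either direction. At an unadjusted p below 0.05 there were 5 of the 20, against 9.22% of all tested genes. The median log2 difference was -0.012, near the -0.078 of all tested genes. EdgeR also called 0, and DESeq2 called 4 higher, against 2.84% of all tested genes: Klf5, Cdx1, Cdx2 and Gata4, which act in intestinal epithelial growth and identity. Klf5 went from 3703 ± 2374 to 16051 ± 12783 scaled counts, with ratios of 0.908 in libraries 5 and 6, 4.33 in 1 and 2 and 15.6 in 9 and 10. Gata4, a factor of proximal intestinal identity, went from 431 ± 209 to 2700 ± 1851, with ratios of 1.45, 6.81 and 17.8 in the same order. Cdx1 and Cdx2, the caudal-type factors of the hindgut lineage, had ratios of 1.02 and 1.26 in the GFP1 pair and 4.85 to 23.3 in the GFP3 pairs. All 4 were thus at most 1.45-fold higher in the GFP1 pair, where Ovol2 was 7.06-fold higher. The log2 difference after IFNg in the GFP3 libraries exceeded that in the GFP1 libraries by 2.32 to 3.38 for the 4. With 1 GFP1 library per treatment, whether the response of these genes differs by tag cannot be told.

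**Figure D3:**
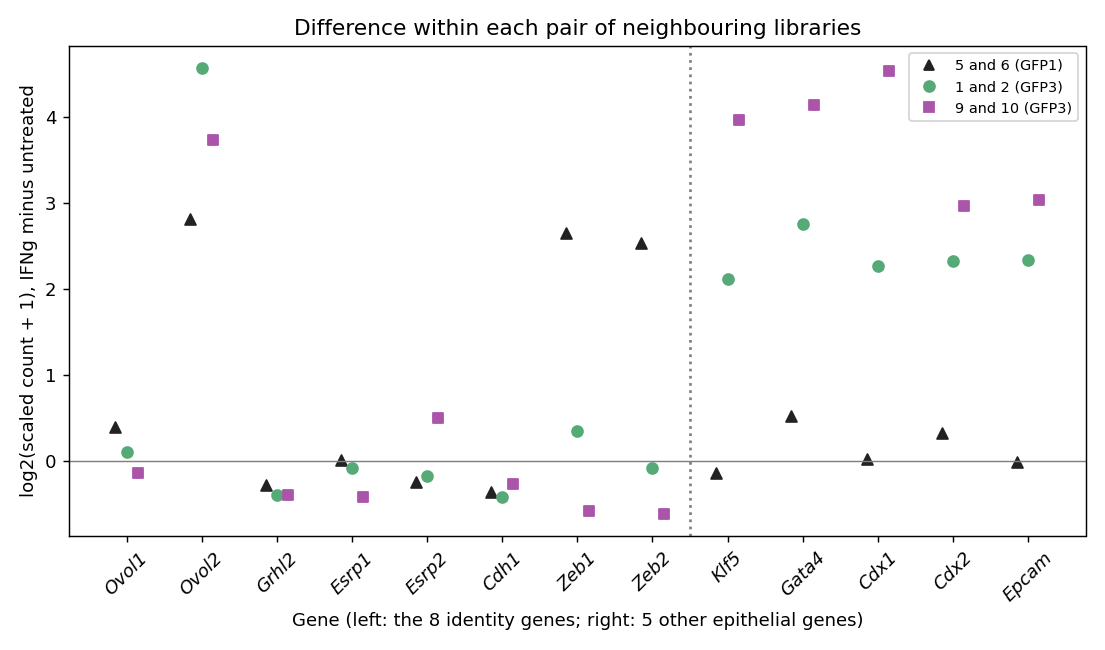
Log2 difference of IFNg minus untreated in each pair of neighbouring end numbers, for the 8 genes and, right of the dotted line, for 5 epithelial genes picked after their values were seen because they passed in DESeq2. Ovol2 is 2.81, 4.57 and 3.74 in pairs 5 and 6, 1 and 2, and 9 and 10, whereas Klf5, Cdx1, Cdx2, Gata4 and Epcam have ratios of 0.908 to 1.45 in pair 5 and 6 and of 4.33 to 23.3 in the other pairs.

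Abundant factors of this list did not pass either. Hnf4a, the nuclear receptor of enterocyte identity, had 20573 ± 4366 scaled counts in untreated and 16986 ± 2563 in IFNg libraries. Elf3, an epithelial ETS factor, had 9644 ± 299 and 14206 ± 2017, a log2 difference of 0.55 ± 0.24 (limma, adjusted p = 0.520).

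Of 35 epithelial adhesion and surface genes, all were tested and 0 passed in limma or edgeR. At an unadjusted p below 0.05 there were 7, against 9.22% of all tested genes. DESeq2 called 1, near the share of 2.84% that it called higher over all tested genes. The median log2 difference was -0.31. That 1 gene was Epcam, an epithelial adhesion protein, which went from 12257 ± 6217 to 45142 ± 27010 scaled counts with pair ratios of 0.996, 5.08 and 8.23. The keratin genes Krt8 and Krt18 had means of 176510 ± 42777 and 191520 ± 53724 in untreated, and 140799 ± 35231 and 139998 ± 24220 in IFNg libraries. Ceacam1, a surface adhesion protein, had 114134 ± 50682 and 85203 ± 30864. The list's medians within the 3 pairs were -0.14, -0.37 and -0.30 on the log2 scale, beside 0.013, -0.083 and -0.18 for all tested genes.

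No mesenchymal gene passed. Of 12 mesenchymal transcription factors, 7 were in the table and 4 were tested, of which 0 passed in limma, edgeR or DESeq2 and 0 had an unadjusted p below 0.05. Snai2, a repressor of Cdh1, had 0, 2.58 and 31.9 scaled counts in untreated 5, 1 and 9, and 46.1, 4.82 and 18.4 in IFNg 6, 2 and 10. Snai3 of the same family had means of 76.3 ± 51.7 in untreated and 68.1 ± 9.93 in IFNg libraries. Tcf4, a basic helix-loop-helix factor, had 1133 ± 96.1 and 1063 ± 210. Of the mesenchymal effector genes, 11 of 16 in the table were tested, and 0 passed in any of the 3 tools. At an unadjusted p below 0.05, which 9.22% of all tested genes reached, there were 0 of them. Thbs1, a secreted matrix-binding protein and the most abundant of them, had 126831 ± 80802 scaled counts in untreated and 83338 ± 59104 in IFNg libraries. Itga5, a subunit of the fibronectin receptor, had 1867 ± 1192 and 1135 ± 764, and Vim, the intermediate filament gene typical of mesenchymal cells, had 226 ± 149 and 252 ± 201. The list thus spanned levels from near the floor to that of Cdh1.

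Genes on the splicing side of the network made no call in limma. Of 15 other splicing regulators in the table, 13 were tested, with 0 passing in limma, edgeR or DESeq2. At an unadjusted p below 0.05, which 9.22% of all tested genes reached, there were 2 of these regulators. Ptbp1, the most abundant of them and a repressor of exons, had 20224 ± 2521 scaled counts in untreated and 21605 ± 2930 in IFNg libraries. Of 13 genes whose transcripts are spliced by ESRP proteins, all were tested, with 0 passing in the 3 tools and 3 at an unadjusted p below 0.05. Cd44, whose epithelial forms carry variable exons, had 8947 ± 3120 and 7284 ± 2052. These are gene totals, and the splice forms were not analysed here.

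Among 15 genes of the co-repressor complexes that ZEB and OVOL proteins recruit, 0 passed in the 3 tools. At an unadjusted p below 0.05, which 9.22% of all tested genes reached, there were 3 of them. Mta2, a subunit of the NuRD complex and the most abundant of the list, had 7254 ± 2141 scaled counts in untreated and 11713 ± 2475 in IFNg libraries, which did not pass (limma, adjusted p = 0.523). Of 25 TGF-beta and BMP pathway genes, 0 passed in limma or edgeR, with 3 at an unadjusted p below 0.05. DESeq2 called 2 of them higher, against 2.84% of all tested genes. Smad1, which carries BMP signals to the nucleus, went from 1368 ± 378 to 3778 ± 826 scaled counts, with ratios of 2.01, 2.20 and 4.98 in the 3 pairs (adjusted p = 0.139 in limma and 0.00106 in DESeq2). It was the 1 gene of all the lists with a rise of at least 2-fold in all 3 pairs. Bmp2, a BMP ligand, went from 222 ± 60.4 to 665 ± 331 with ratios of 1.62, 2.63 and 4.85. The miR-200 loci, which pair with Zeb1 and Zeb2 transcripts, were not analysed here.

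**Figure D4:**
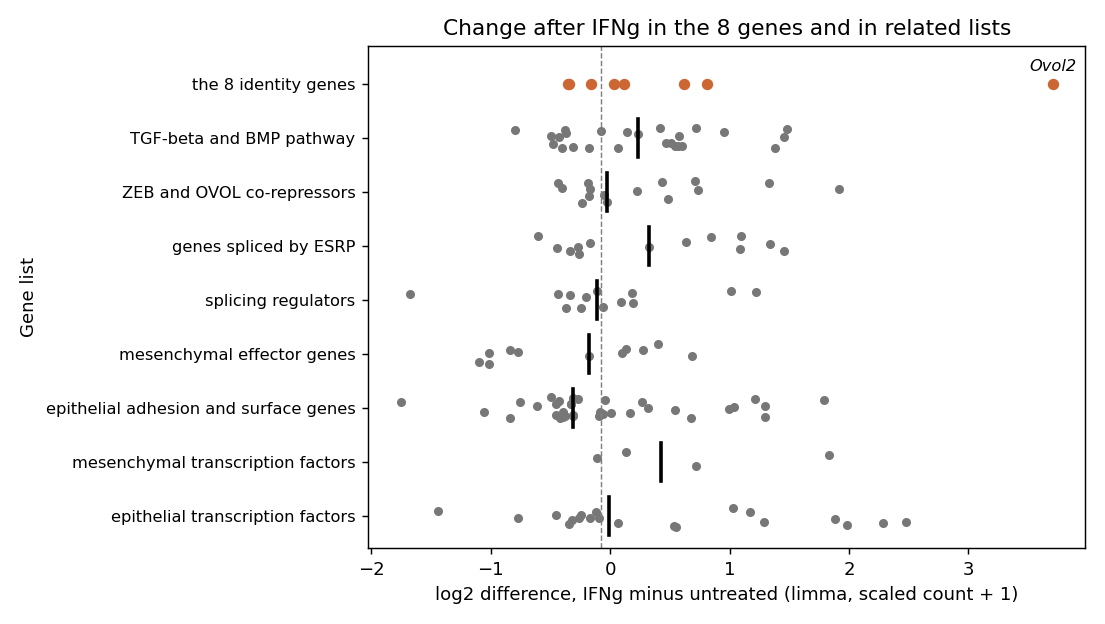
Log2 difference of IFNg minus untreated for each tested gene of the related lists (grey points, random vertical offset, black bar at the list's median) and for the 8 genes (orange); the dashed line is the median of all tested genes, -0.078. Ovol2 at 3.71 lies to the right of the genes of every list, and list medians run from -0.31 for adhesion genes to 0.43 for mesenchymal factors.

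With the 4 GFP3 libraries alone, limma called 8.27% of tested genes higher and 0.0746% lower. There were then 5 higher among 20 epithelial factors, 7 higher and 1 lower among 35 adhesion genes, 4 higher each among the 13 ESRP targets and the 15 co-repressors, and 2 higher each among splicing regulators and TGF-beta and BMP genes. The tested mesenchymal factors and effectors had 0 calls in either direction there in limma, as in the fit of all 6 libraries. These groups hold 2 libraries each, with untreated 1 and untreated 9 as the controls.

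The difference between title tags, which did not choose the genes, was tested after the values were seen, in a fit with the treatment as the other term. Over all tested genes, 5.47% were higher and 2.28% lower in GFP3 than in GFP1 libraries, and the share higher held 881 genes, against 48 without untreated 1, 112 without IFNg 2, 145 without IFNg 10, 301 without IFNg 6 and 433 without untreated 5. Of the 8 genes, 1 passed, which was Cdh1, with a mean of 41091 scaled counts over the 2 GFP1 and 143987 over the 4 GFP3 libraries. This is a 3.50-fold difference, or 1.80 ± 0.21 on the log2 scale (SE; limma, adjusted p = 0.0110), and all 4 GFP3 libraries lay above both GFP1 libraries. Since the tag is constant within each pair, GFP1 is 1 pair against 2 GFP3 pairs, and this fit takes the 6 libraries as independent. A limma fit on the means of the 3 pairs, in which the lone GFP1 pair is assumed to vary like the others and the spread is largely borrowed from other genes, gave 1.80 ± 0.34 (SE) for Cdh1 (limma, adjusted p = 1.73e-05). Over 12 alternatives, this one included, the adjusted p of Cdh1 ranged from 2.73e-12 to 0.0368. Grhl2 differed by 0.70 ± 0.19 in the same direction without passing (adjusted p = 0.0625 in limma and 0.00311 in DESeq2). The other 6 had adjusted p-values from 0.201 to 0.892 in limma.

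Among the adhesion and surface genes, 11 of 35 were higher in GFP3 libraries in limma and 0 were lower. The 11 included Ctnnd1, the catenin that binds E-cadherin, with a difference of 0.98 (adjusted p = 0.0346), the tight junction genes Cldn4, Cgn and Marveld2, and the desmosomal genes Dsc2 and Pkp3. Krt20, St14, Prss8 and Ceacam1 were also among them. This count depended on which libraries and tool were used. It was 1 without untreated 1 or IFNg 2, 0 without IFNg 10 and 11 without untreated 9. DESeq2 gave 14 and edgeR 6. Other lists had genes higher in GFP3 libraries too, and 0 lower in limma. They were 2 of 11 mesenchymal effectors, 2 of 20 epithelial factors, 2 of 25 TGF-beta and BMP genes (Tgfbr2 and Skil) and 1 of 13 ESRP targets (Osbpl3). The share higher over all tested genes was 5.47%, and with lists this short nothing is read from these counts. The effectors were Thbs1, with a difference of 2.57 ± 0.22 (limma, adjusted p = 0.00680), and Itga5, with 1.68 (adjusted p = 0.0411). The median log2 difference by tag was 1.07 for the tested effectors, 0.58 for the adhesion genes and 0.037 for all tested genes. Some markers also lay apart by tag, and others did not. The sum of 4 enteroendocrine markers was 5521 and 4789 in the GFP1 libraries and 8164 to 18198 in the GFP3 libraries, and the fibroblast and smooth muscle sum was 62.2 and 35.8 against 178 to 398. Stem cell markers went both ways. Lgr5 had 2801 and 2484 in the GFP1 libraries against 4706 to 8499, and Rnf43 had 2378 and 1859 against 2816 to 5716. Ascl2 had 702 and 866 against 180 to 619, and Slc12a2 had 21923 and 18933 against 11343 to 15124. The sum of the 7 stem cell markers overlapped, with 261796 and 277424 against 276080 to 301694. The sums overlapped for 4 tuft cell markers, with 1779 and 1729 against 1446 to 2530. They also did for 5 enterocyte markers, with 864 and 578 against 569 to 835. The part of cell content in the Cdh1 difference was not tested.

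**Figure D5:**
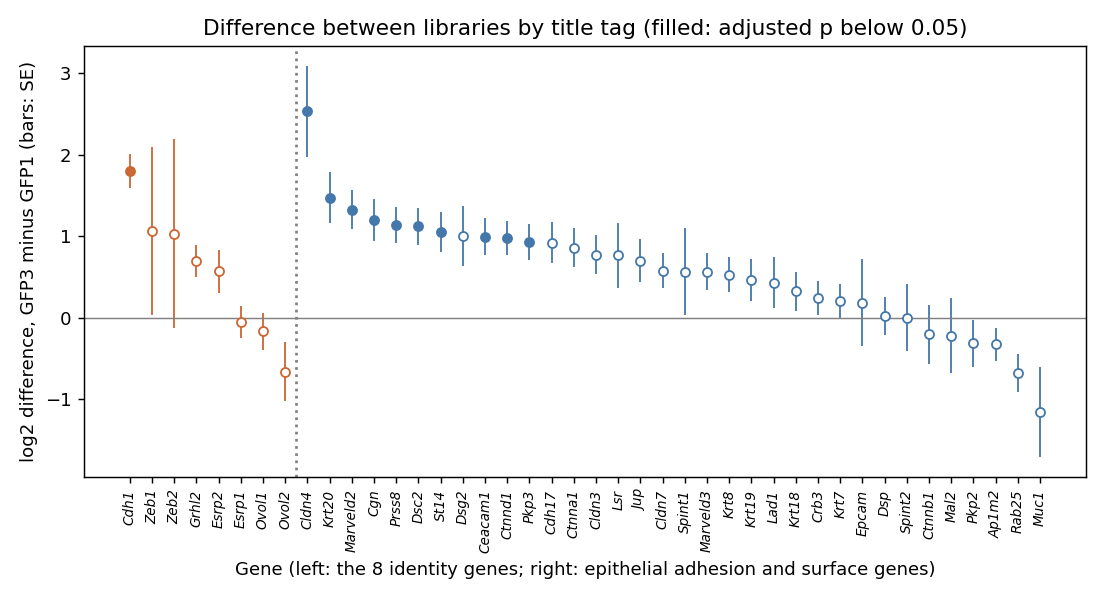
Log2 difference of GFP3 minus GFP1 libraries, with SE, for the 8 genes (orange, left of the dotted line) and 34 adhesion and surface genes (blue); filled points passed at an adjusted p below 0.05 in limma. Cdh1 at 1.80 is the 1 filled point of the 8, and 10 of the 34 are filled, all above 0.

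Genes with the profile most like each of the 8 were found by the root mean square difference of centred log2 values over the 6 libraries. The profile of Ovol2 is mostly its rise after IFNg, which chose the gene. Genes near it therefore also rise, and its ranking is only a description. For Ovol2 the nearest was Tifa, an adaptor of NF-kappaB signalling, at 0.345, against a median of 1.99 over all tested genes. Then came Socs3, a feedback inhibitor of cytokine receptors, at 0.377, Ifi47, an interferon-induced GTPase, at 0.379, Gm17334 at 0.532 and Ripk1, a kinase of cell death and inflammation, at 0.553. Tifa went from 942 ± 341 to 9517 ± 2839 scaled counts, a range like that of Ovol2, from a higher level.

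For Cdh1 the nearest genes were the ion cotransporter Slc12a7 at 0.0707, the amino acid transporter Slc38a10 at 0.0939 and the mucosal glycoprotein Dmbt1 at 0.0949, against a median of 0.993. For Grhl2 they were Fermt2 at 0.0385, Heg1 at 0.0400 and Ikbkap at 0.0521, against a median of 0.592. For Zeb1 and for Zeb2 the nearest was the smooth muscle actin gene Acta2, at 0.198 and 0.433. Next for Zeb1 were Anxa10 at 0.230 and Scg3 at 0.307. Next for Zeb2 were Zeb1 at 0.435 and Gm15608 at 0.481. The Zeb1 and Zeb2 profiles rest on 1 to 46 reads per library. For Esrp1 the nearest gene was Ssr2 and for Esrp2 it was Twsg1. For Ovol1 they were the predicted genes Gm5297 and Gm4596 and a gene whose symbol the table holds as a date.

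RefSeq start-site windows on GRCm38, 250 bases before to 50 after a start, were present for Ovol2 and Zeb2 and were searched for 5 motifs on both strands. The motifs were the STAT site GAS (TTCNNNGAA, in 8.29% of 32817 windows), the interferon element ISRE (3.43%), the OVO site CCGTTA (2.75%), the grainyhead site AACCGGTT (0.146%) and the ZEB E-box CACCTG (20.2%). The Ovol2 window, chr2:144331313-144331612, held none of these letters. On the minus strand it lies downstream of the gene start that GENCODE M21 gives, base 144332146, within the annotated first exon, so the bases before that start were not searched. It had a GC content of 65.7% and 25 CpG, more CpG than 81.6% of windows. The GAS letters were present in 2 of 4 overlapping Zeb2 windows, at chr2:45113418-45113426. A match is a description of letters in a window and says nothing about binding.

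Exons of other genes of the 8 also overlap genes on the opposite strand. Ovol1 shares 690 bases with Gm31166 and Zeb2 shares 653 with Zeb2os, whose levels were not analysed here. Zeb1 shares 198 bases with Gm10125, which had a mean of 2.93 scaled counts, against 1.05 to 22.7 for Zeb1 itself. Ovol2 shares 359 bases with 1700108N11Rik, which had a mean of 4.65 scaled counts against 1263 or more for Ovol2 in each IFNg library. Grhl2 shares 169 bases with Gm16136 at 58.4, and Esrp1 shares 127 with Gm26663 at 5.03.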

How the data were processed

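The deposited table holds a signal per gene, scaled counts that the authors made by dividing each library's reads by a size factor, per the name of the table. The submitters' processing notes name STAR 2.5.0a, cutadapt 1.6, DESeq 1.22.1, HTSeq 0.5.3 and the build mm10, with no roles. The sources used here give neither annotation nor strand setting. Libraries came from 2 ng of RNA by SMART-Seq v4, per the labels' protocols, without molecular identifiers. Dividing by the value of 1 read (0.853 to 1.05 scaled counts) gave whole reads, to within 0.01 of a read, for 100% of 138762 values. The 4 rows without a gene took 40.3% to 52.5% of all values and were left out.

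Limma 3.58.1 (R 4.3.3) was fitted on log2(scaled count + 1) with a trended, robust prior. Tests were two-sided and covered 16095 genes whose mean reached 10, with Benjamini-Hochberg adjustment at 0.05. That scale understates changes of low genes. The recovered reads were also tested with DESeq2 1.42.0 and edgeR 4.0.16, and the fit was tested on simulated data. Whether the libraries are from separate animals is not in the labels. P-values therefore measure the spread between these samples only, and that spread may be technical.

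The genes and lists were chosen with earlier results of these data known. Text names the 8 genes, list genes that passed, the 3 most abundant or fewer of each list, and the 5 genes most like Ovol2 and 3 most like each other gene. Genes named for DESeq2 or tag calls were picked after their values were seen. Some genes that these rules take are not reported here. Deviations from the group means correlated at 0.302 for libraries 5 and 6, 0.404 for 1 and 2 and 0.252 for 9 and 10, and at -0.031 or less for other combinations, so neighbouring numbers were taken as pairs from the data, not from the labels.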

Additional observations from a re-analysis of the deposited data

How the results depend on the processing

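The log2 difference of Ovol2, a description since this contrast chose the gene, ran from 3.36 to 4.15 over 16 alternatives (other pseudocounts, filters, scaling, tools, blocks and left-out libraries). Over the whole table, the 67 genes higher became 457 in DESeq2, 108 with the tag as a covariate, 1331 with GFP3 libraries alone and 40 to 366 when a library was left out. The 2 genes lower became 1 with a pseudocount of 0.5 or a mean of at least 50, 8 in DESeq2, 12 with GFP3 libraries alone and 1 to 3 when a library was left out. With the pair as a replicate block, 74 were higher and 1 lower, and none of the list counts changed from 0.

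List calls, 0 in limma, became 4 epithelial factors, 1 adhesion gene and 2 TGF-beta and BMP genes in DESeq2. With GFP3 libraries alone they became 5 epithelial factors, 8 adhesion genes, 2 splicing regulators, 4 ESRP targets, 4 co-repressors and 2 TGF-beta and BMP genes. When a library was left out they ranged from 0 to 2 for epithelial factors and for adhesion genes and from 0 to 1 for splicing regulators and co-repressors. The treatment-by-tag interaction, added after seeing the data, passed for 0 genes in limma (2117 at an unadjusted p below 0.05) and 681 in DESeq2. For the tag, also added after seeing the data, 881 genes higher became 1726 in DESeq2, 1602 over pair means and 48 to 800 with a library left out, and 367 lower became 1154, 831 and 1 to 568. Adhesion genes higher by tag, 11 in limma, became 14 in DESeq2, 6 in edgeR and 0 to 11 with a library left out. The cause of these shifts was not tested. Depth limits Zeb1 and Zeb2, at 1 to 46 reads.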
